A study of Homo sapiens with 10 samples.

Results

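Src-family kinases are membrane-tethered tyrosine kinases that start signalling from antigen receptors, Fc receptors and integrins, and each is held shut when the tyrosine near its carboxyl end is phosphorylated. C-terminal Src kinase (CSK) adds that phosphate, the membrane adaptor encoded by PAG1 brings CSK to the membrane, and the phosphatases encoded by PTPN6 (SHP-1) and PTPN22 act against active kinases and their substrates. The genes described here are 5 kinases (LCK, FGR, FYN, YES1 and SRC) and 4 brakes (CSK, PAG1, PTPN6 and PTPN22). They were chosen by symbol, and all 9 were found once each among the 20591 genes of the deposited table. In GRCh38, which is not the authors' build, LCK lies at chr1:32251239-32286165, FGR at chr1:27612064-27635277, FYN at chr6:111660332-111873452, YES1 at chr18:721588-812546 and SRC at chr20:37344685-37406050. CSK lies at chr15:74782057-74803198, PTPN6 at chr12:6946468-6961316, PTPN22 at chr1:113813811-113871759 and PAG1 on chromosome 8. All 9 are annotated as protein coding.

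The table holds 10 libraries of bulk RNA, 1 per group and none treated: 6 mixtures of human blood cancer lines (mixtures 1 to 6, ratios not given in the labels) and pure HL60, K562, SUDHL4 and THP1, all labelled WT and taken on day 0. K562 comes from chronic myeloid leukaemia with BCR-ABL1 and has erythroid features. THP1 is monocytic and HL60 promyelocytic, both from acute leukaemia, and SUDHL4 is a B cell lymphoma line. Reads counted in genes, recovered from the deposited values, numbered between 24985570 (mixture 5) and 36607612 (mixture 1) per library. With 1 library per group there is no replicate error and no p-value is given. Intervals are exact 95% intervals that cover counting error only. Levels are given as normalised CPM, which are read counts on a scale of 1000000 per library with library sizes further adjusted by the authors. A gene with 0 reads was given a limit of 3 reads, between 0.0955 and 0.139 normalised CPM. Each line was checked against its markers: all 5 markers used for HL60 and for SUDHL4, and all 6 for K562 and for THP1, were at least 2 log2 units above the next line, on the log2(value + 1) scale, in the line they mark.

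The regulated tail itself is shared by the 5 kinases. The last 48 coding bases of each are shown in GENCODE release 29 transcripts, 5′ to 3′ on the coding strand, with the codon of the last tyrosine, the target of CSK, in capitals. In each of the 5 that codon is TAC; it is followed by 4 more codons in LCK and by 6 in FGR, FYN, YES1 and SRC.
LCK: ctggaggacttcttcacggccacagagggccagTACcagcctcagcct
FGR: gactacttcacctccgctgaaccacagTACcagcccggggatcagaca
FYN: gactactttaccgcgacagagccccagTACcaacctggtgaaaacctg
YES1: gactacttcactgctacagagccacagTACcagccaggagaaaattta
SRC: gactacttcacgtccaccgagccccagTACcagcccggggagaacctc

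LCK and YES1 were the kinases called enriched in a line, so their promoter windows are shown from RefSeq (GRCh38.p14), 250 bases before to 50 after the start of transcription, with each CpG in capitals. LCK has 2 listed starts, an upstream one at chr1:32251015-32251314 and a downstream one at chr1:32273871-32274170, both on the plus strand. YES1 has 1, at chr18:812193-812492 on the minus strand.
LCK upstream: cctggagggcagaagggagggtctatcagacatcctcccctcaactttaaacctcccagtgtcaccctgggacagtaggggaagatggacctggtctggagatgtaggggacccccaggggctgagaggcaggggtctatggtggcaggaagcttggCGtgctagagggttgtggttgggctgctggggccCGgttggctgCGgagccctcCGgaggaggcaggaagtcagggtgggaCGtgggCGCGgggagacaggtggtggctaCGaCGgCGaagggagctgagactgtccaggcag
LCK downstream: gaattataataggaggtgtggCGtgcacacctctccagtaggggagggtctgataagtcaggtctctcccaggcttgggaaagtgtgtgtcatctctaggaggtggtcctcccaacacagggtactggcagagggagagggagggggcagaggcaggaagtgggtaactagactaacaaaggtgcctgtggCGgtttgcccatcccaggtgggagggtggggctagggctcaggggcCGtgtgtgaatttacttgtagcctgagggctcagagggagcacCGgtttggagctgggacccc
YES1: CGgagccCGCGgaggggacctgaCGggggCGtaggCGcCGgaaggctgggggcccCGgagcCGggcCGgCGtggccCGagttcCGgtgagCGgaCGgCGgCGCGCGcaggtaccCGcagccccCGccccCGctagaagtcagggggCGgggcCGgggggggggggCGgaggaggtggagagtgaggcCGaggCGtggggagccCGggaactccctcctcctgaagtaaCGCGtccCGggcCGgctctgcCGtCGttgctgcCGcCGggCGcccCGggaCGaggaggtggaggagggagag

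The LCK windows held 10 and 4 CpG, against 39 in the YES1 window, where the median of all 34943 listed promoter windows was 14. Promoters of 7 of the 9 genes were listed, in 13 windows that held between 2 CpG (a FYN start) and 55 CpG (another FYN start). The B cell octamer ATGCAAAT was in 0 of the 13 on either strand, and in 1.77% of all windows. The GATA letters AGATAA were in 2 of the 13 (1 window of FYN and 1 of PTPN6), and in 10.4% of all windows. Neither motif contains the other, and a match is a description of the window only. The counts are summed over each gene, so which LCK start was used is not known from them.

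LCK, the kinase that starts T cell receptor signalling, was a SUDHL4 transcript in these lines. It had 252 normalised CPM in SUDHL4 (6865 reads, interval 246 to 258), against 0.0503 in HL60, which is 1 read, and 0 reads in K562 and THP1. It was at least 2357-fold higher in SUDHL4 than in THP1 and at least 2551-fold higher than in K562, against the limit of 3 reads in a library. The SUDHL4 level did not overlap that of any other line in counting error. Of 13 listed T and NK cell markers 9 were measured. None of these reached 5 normalised CPM in SUDHL4, against 2 in HL60, 1 in K562 and 2 in THP1. Their sum was 6.48 in SUDHL4, against 287 in HL60, 15.3 in K562 and 324 in THP1. Those with 0 reads numbered 4 in SUDHL4, 4 in HL60, 4 in K562 and 3 in THP1. The count at 0 reads thus did not set SUDHL4 apart, and the same share over all measured genes was not computed. ZAP70, the T cell kinase that acts after LCK, had 0 reads in SUDHL4 and in THP1, 6 in HL60 and 2 in K562. CD3E, a chain of the T cell receptor complex, was the highest of the list in SUDHL4 at 4.83 (131 reads), above its level in the other 3 lines. CD247, which encodes the zeta chain of that complex, was not on this list and was enriched in SUDHL4 at 9.35 (254 reads). Other markers of the list were highest elsewhere. CD3D, another chain of that complex, was enriched in K562 at 14.6, against 0.0551 in SUDHL4, and made up most of the K562 sum. NKG7, a granule protein of cytotoxic cells, had 44.9 in THP1 and 11.4 in HL60, against 0.202 in SUDHL4. The part of T cell transcripts in the LCK level was not tested. The sums in HL60 and THP1 came mostly from CD4, at 274 and 276, which myeloid cells also express. The 3 genes whose profile over the 10 libraries was most like that of LCK were HLA-DQA1 (252 in SUDHL4), BLK (299) and SERPINA9 (206), with root mean square differences of 0.09, 0.12 and 0.17 log2 units among 11312 genes compared.

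YES1, a broadly expressed family member, was highest in K562 and had no reads in SUDHL4. Its levels were 247 in K562 (8757 reads, interval 242 to 253), 25.8 in THP1, 16.1 in HL60 and 0 reads in SUDHL4. The ratio of K562 to THP1 was 9.58 (interval 8.92 to 10.3). K562 was at least 1825-fold higher than SUDHL4, by the lower end of the interval. LCK and YES1 thus had opposite extremes, each with 0 reads in the line where the other peaked. YES1 shares part of its sequence with other genes: 5.10% of the 50-base words of its longest transcript also occur elsewhere in the transcriptome, most often in the pseudogene YES1P1, so its reads are less certain than those of the other 4 kinases, for which no word was shared. Among the brakes PAG1 shared 0.271% and the other 3 none. The profile nearest to that of YES1 was BHLHE40 (161 in K562 and 28.9 in THP1), at 0.31 log2 units, followed by SEPTIN5 (0.36) and SNX9 (0.38).

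SRC, the founding member of the family, was also highest in K562, at a low level. It had 12.6 in K562 (interval 11.4 to 13.8), 6.74 in THP1, 4.42 in SUDHL4 and 0.352 in HL60, where only 10 reads were counted. K562 was 1.86 times THP1 (1.58 to 2.20) and 37.4 times HL60 (20.1 to 78.5). TWSG1, CAST and MAGEH1 had the most similar profiles, at 0.16, 0.17 and 0.17 log2 units.

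FGR, a kinase of monocytes and granulocytes, was low wherever it was found. It had 11.6 in THP1, 7.84 in SUDHL4 and 6.82 in HL60, and 0 reads in K562. THP1 was 1.48 times SUDHL4 (1.25 to 1.76) and, by the lower end of the interval, at least 111-fold higher than K562. The order of SUDHL4 and HL60 lay within counting error, at a ratio of 1.15 (0.944 to 1.40). Its nearest profiles were those of DTNB (0.15), ARL11 (0.16) and ARHGAP27 (0.17).

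FYN, which acts in T cells and in many other tissues, varied least of the 9. It had 31.2 in THP1, 15.2 in K562, 14.1 in SUDHL4 and 12.3 in HL60. THP1 was 2.05 times K562 (1.85 to 2.28), while K562 and SUDHL4 (1.08, 0.942 to 1.23) and SUDHL4 and HL60 (1.15, 0.993 to 1.33) could not be ordered within counting error. The highest line was 2.54 times the lowest. DCAF12 and CHMP3 (0.09 log2 units each) and MAGED2 (0.10) had the most similar profiles.

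Among the brakes, CSK was present in all 4 lines. It had 441 normalised CPM in SUDHL4, 307 in HL60, 163 in THP1 and 78.3 in K562, each outside the counting interval of the next. SUDHL4 was 1.43 times HL60 (1.40 to 1.47) and 5.63 times K562 (5.41 to 5.87). RITA1, EPM2A and TMEM106C were nearest in profile, each at 0.17 log2 units.

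PAG1, the adaptor that holds CSK at the membrane, had 313 in SUDHL4, 66.5 in THP1, 7.46 in HL60 and 0 reads in K562. SUDHL4 was 4.71 times THP1 (4.49 to 4.94), and THP1 8.93 times HL60 (7.78 to 10.3). Against K562 the SUDHL4 level was at least 3003-fold higher, by the lower end of the interval. Its margin over the next line was 2.22 log2 units, only just past the 2 units used here, and was 1.90 when libraries were scaled to equal housekeeping levels. MAP4K1, a kinase of blood cells, was nearest in profile (313 in SUDHL4 and 78.1 in THP1, at 0.44 log2 units), before LPP (0.49) and GLIPR1 (0.52).

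PTPN6, the SHP-1 phosphatase of blood cells, was highest in HL60 and THP1, and lowest in K562. It had 343 in HL60 and 143 in THP1, against 10.2 in SUDHL4 and 1.28 in K562 (45 reads). HL60 was 2.39 times THP1 (2.31 to 2.48), but 1.51 times with housekeeping scaling. HL60 was 33.8 times SUDHL4 (30.0 to 38.3), and SUDHL4 was the line with the highest LCK and CSK levels. SPNS3 (0.29 log2 units), SELPLG (0.39) and NFAM1 (0.43) were nearest in profile.

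PTPN22, a phosphatase that binds CSK and acts on LCK in T cells, had 93.1 in SUDHL4, 33.9 in HL60, 11.3 in THP1 and 0.353 in K562 (12 reads). SUDHL4 was 2.75 times HL60 (2.55 to 2.96) and 275 times K562 (157 to 533). ELMO1 (0.27), WIPF1 (0.29) and USP13 (0.30) were nearest in profile.

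**Figure D1:**
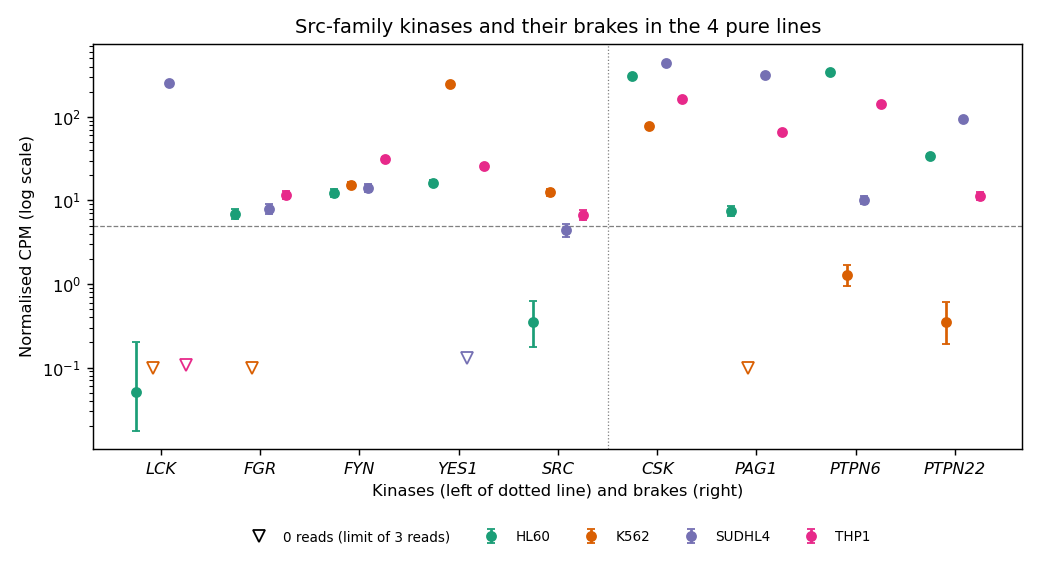
Levels of the 5 kinases and 4 brakes in the 4 pure lines, in normalised CPM on a log axis; points are single libraries with exact 95% counting intervals, open triangles stand at the limit of 3 reads for a gene with 0 reads, and the dashed line marks 5 normalised CPM. LCK peaks in SUDHL4 at 252 and YES1 in K562 at 247, and CSK stays between 78.3 and 441. In K562 PAG1 has 0 reads, PTPN6 is at 1.28 and PTPN22 at 0.353.

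Enrichment in a line required a level of 5 normalised CPM or more and a lead of 2 units or more, in log2(value + 1), over the second line. By this rule 3 of the 9 were enriched, against 14.2% of the 11717 genes that reached 5 in a pure line. They were LCK and PAG1 in SUDHL4, where 3.56% of genes were called, and YES1 in K562, where 4.60% were. None was called in HL60 (0.973% of genes) or THP1 (5.03%). A gene was shared by a pair when both lines had 5 or more and led both remaining lines by the same margin. This held for 2 of the 9, against 6.42% of genes: PAG1 in SUDHL4 and THP1, and PTPN6 in HL60 and THP1. FGR, FYN, SRC, CSK and PTPN22 were in neither class. In K562, 3 of the 9 had 0 reads (LCK, FGR and PAG1), against 5.48% of genes. YES1 alone had 0 reads in SUDHL4 (9.58% of genes), LCK alone in THP1 (2.71%) and none in HL60 (6.88%). The median difference of the 9 from the mean of the other lines was −2.68 log2 units in K562, −0.14 in HL60, 0.94 in SUDHL4 and 0.74 in THP1, where all genes had 0.07, 0.08, −0.10 and −0.16. All 4 brakes were lowest in K562, but the share of all genes that were lowest there was not computed. The order of the 4 lines was the same for each of the 9 genes under the deposited, total-read and housekeeping scalings. For LCK, K562 and THP1 were tied at 0 reads. The scalings multiplied the pure lines by between 0.739 and 1.17, so an order set by large differences could not change.

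Levels of different genes can be compared only per length, so each was divided by the longest annotated transcript. LYN and BLK, both of the same family, were added to the 5 kinases, and totals are over these 7 and not over the whole family. The summed level of the 7 was 292 normalised CPM per kilobase in SUDHL4, 93.2 in K562, 38.4 in THP1 and 15.1 in HL60. LCK made up 39.8% of the sum in SUDHL4 and BLK 39.3%. YES1 made up 57.2% in K562, before LYN at 35.4%. These shares depend on the length used. With coding length LYN came first in SUDHL4 (35.3%), and with the median transcript length LYN came first in K562 (58.2%), where YES1 had 24.2%.

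CSK per kilobase was 159 in SUDHL4, 111 in HL60, 58.8 in THP1 and 28.3 in K562. PTPN6 per kilobase was 142 in HL60 and 59.4 in THP1, beside CSK at 111 and 58.8, and 4.21 in SUDHL4 and 0.533 in K562. The order of PTPN6 and CSK in HL60 and THP1 depends on the length used. With coding length (1872 bases for PTPN6, 1350 for CSK) CSK was above PTPN6 in both lines. These are transcript levels and give no measure of kinase activity.

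**Figure D2:**
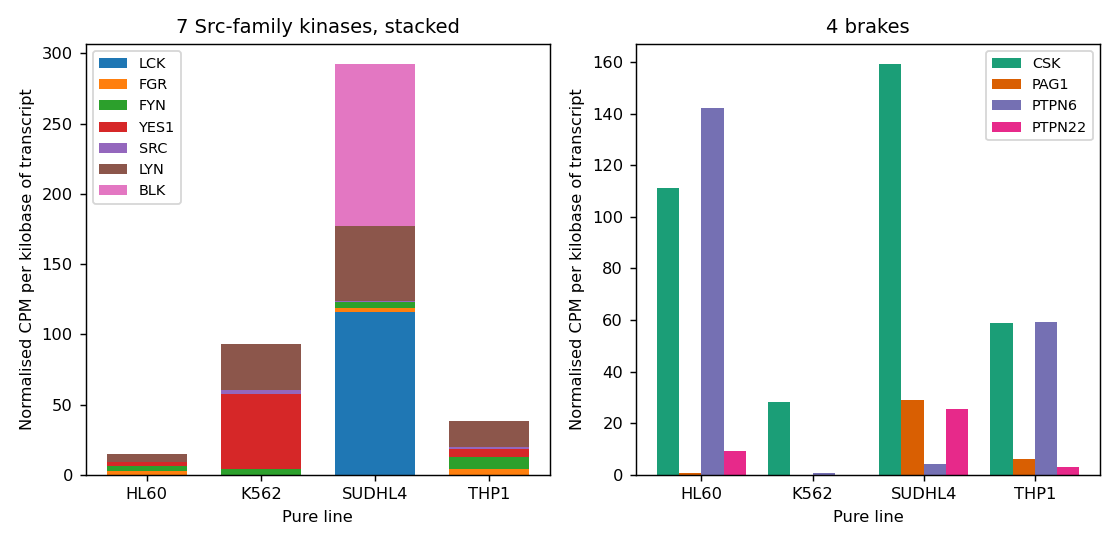
Levels per kilobase of the longest transcript in the 4 pure lines, with 1 library each: 7 Src-family kinases, not the whole family, stacked (left) and the 4 brakes side by side (right), both in normalised CPM per kilobase. LCK and BLK fill most of the SUDHL4 bar (39.8% and 39.3% of 292), YES1 most of the K562 bar (57.2% of 93.2), and CSK is 111 in HL60 and 28.3 in K562.

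The mixtures hold the same 4 lines, so each observed level was set beside the sum of the pure levels weighted by how much RNA each line gave. Weights came from a non-negative least squares fit to 100 signature genes per line, which left out the members, the listed pathway genes and the markers. Fewer cells of a line and less RNA per cell cannot be told apart in such a weight. A value was called off its prediction at a difference of 1 log2 unit or more, with at least 5 in either. Of the 54 member values, 50 reached that level and 0 were off, against 0.442% of 61542 values of all genes. By mixture that background was 0.107% in mixture 1, 1.22% in mixture 2, 0.148% in mixture 3, 0.220% in mixture 4, 0.705% in mixture 5 and 0.240% in mixture 6. The median absolute difference was 0.15 log2 units for the members and 0.14 for all genes. The prediction lay inside the counting interval of the mixture reads for 22 of the 54. That interval leaves out the counting error of the pure libraries and the error of the fit. The same share over all genes was not computed.

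LCK was highest in the mixture with the largest SUDHL4 share and undetected in the one with the smallest. It had 61.1 in mixture 1, 18.6 in mixture 2, 0 reads in mixture 3, 138 in mixture 4, 35.0 in mixture 5 and 29.8 in mixture 6. Predicted levels were 53.9, 16.1, 0.0212, 140.4, 28.4 and 28.2. LCK was thus undetected in the mixture whose SUDHL4 share was estimated at 0.00419%, where 3 reads would be 0.0462% of the pure SUDHL4 level, and highest in mixture 4, where that share was 57.9%. The ratio of LCK to BLK reads, which needs no estimate of shares, was between 0.833 (mixture 1) and 1.05 (mixture 5) in the 5 mixtures with reads, against 0.843 in pure SUDHL4 (0.817 to 0.871). The intervals of mixture 2 (0.887 to 1.15) and mixture 5 (0.955 to 1.16) did not overlap that of pure SUDHL4, while those of mixtures 1, 4 and 6 did.

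YES1 was lowest in the mixture with the smallest K562 share, and its gaps to the prediction were larger. It had 50.4, 43.9, 94.7, 12.7, 88.7 and 124 in mixtures 1 to 6, against predictions of 65.1, 61.4, 100.2, 9.53, 137 and 136. It lay below its prediction in 5 of 6 mixtures, most in mixture 5 at −0.62 log2 units, and above it in mixture 4 (0.38), where K562 was estimated at 0.0363% of the RNA. In mixture 4, 81.8% of the predicted YES1 level came from THP1 and 17.3% from HL60. The estimated K562 share was 53.0% in mixture 6 and 53.6% in mixture 5, and YES1 was 1.39 times higher in mixture 6 than in mixture 5 (1.32 to 1.47). PTPN22 (1.41, 1.21 to 1.64) and PTPN6 (1.37, 1.28 to 1.47) were also higher in mixture 6, as were SRC (1.23, 1.03 to 1.47), PAG1 (1.16, 1.08 to 1.26) and CSK (1.15, 1.11 to 1.20). LCK was lower (0.851, 0.777 to 0.933), and the intervals of FGR and FYN held 1. How many of all genes have an interval that leaves out 1 between mixtures 5 and 6 was not computed. The HL60 share was 7.71% in mixture 6 and 0.270% in mixture 5.

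PAG1 had the widest departures of the 9. It had 70.1, 21.2, 29.7, 159, 40.5 and 47.2 in mixtures 1 to 6, against predictions of 87.3, 38.6, 23.0, 195, 57.5 and 53.4. The largest gap was in mixture 2 at −0.83 log2 units, where 96.8% of genes lay closer to their prediction. PAG1 was below its prediction in 5 mixtures and above it in mixture 3 (0.35), where 97.4% of genes lay closer. Mixture 3 was the one without a measurable SUDHL4 share, and 92.4% of the predicted PAG1 level there came from THP1. For YES1 the share of genes that lay closer was 94.7% in mixture 1 (−0.36) and 94.7% in mixture 5 (−0.62).

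The other 6 genes stayed within 0.44 log2 units of their predictions. CSK ranged from 142 (mixture 3) to 307 (mixture 4), with gaps between −0.09 and 0.24. PTPN6 ranged from 48.0 in mixture 5 to 199 in mixture 2, the mixture richest in HL60 (48.8% of the RNA), with gaps between −0.29 and 0.05. PTPN22 was highest in mixture 4 at 56.7 and lowest in mixture 5 at 10.4, where its gap was −0.44. FYN was nearly flat, between 17.9 and 20.4. FGR lay between 4.24 in mixture 3 and 8.15 in mixture 4. SRC lay between 4.02 in mixture 2 (interval 3.28 to 4.88) and 10.0 in mixture 6 (8.99 to 11.2), which do not overlap. For each of these 3 genes the prediction lay inside the counting interval in 5 of 6 mixtures.

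**Figure D3:**
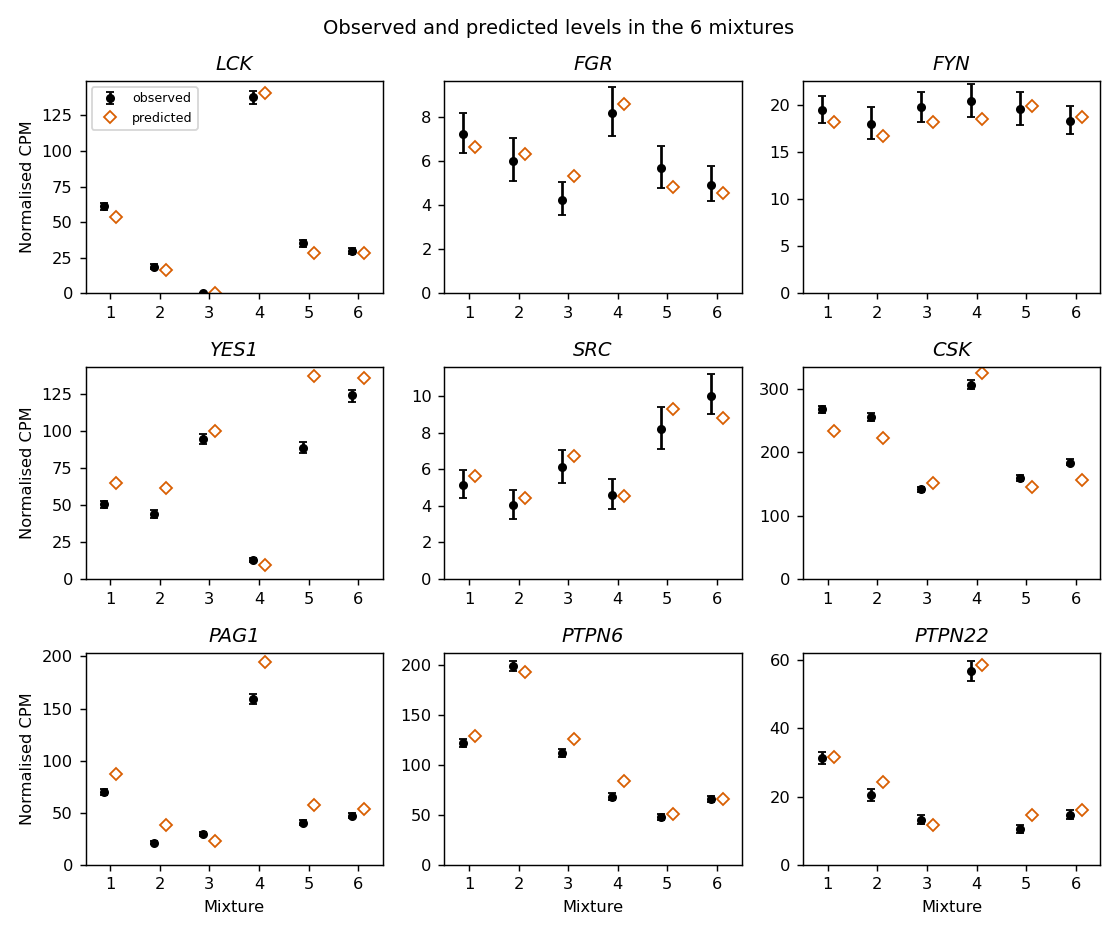
Levels of the 9 genes in mixtures 1 to 6, in normalised CPM on linear axes that start at 0; black points are observed levels of single libraries with exact 95% counting intervals and open diamonds are predictions from the pure lines. LCK is at 0 reads in mixture 3, YES1 is at 12.7 in mixture 4, and YES1 in mixture 5 (88.7 observed, 137 predicted) and PAG1 in mixture 2 (21.2 observed, 38.6 predicted) show the widest gaps on the log2 scale.

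Other genes of the pathway place the 9 in context. Among 6 further Src-family and related kinases, 3 reached 5 normalised CPM in a pure line. BLK, a B cell kinase, was enriched in SUDHL4 at 299, with 0 reads in the other 3 lines. MATK, the relative of CSK that also phosphorylates the tail tyrosine, was enriched in HL60 at 148, against 25.2 in K562, 23.8 in THP1 and 0 reads in SUDHL4, a call that was lost with housekeeping scaling and with a margin of 3 log2 units. LYN passed neither rule, at 310.1 in SUDHL4, 191 in K562, 107 in THP1 and 32.5 in HL60.

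Of 11 adaptors and negative regulators at that level, 2 were enriched, where 14.2% of all tested genes were enriched in a line. SIT1, a membrane adaptor that can bind CSK, was at 75.9 in SUDHL4 against 0.963 in THP1. DOK2, a docking protein that damps tyrosine kinase signalling, was at 87.6 in THP1 against 2.63 in HL60. The list median of the difference from the other lines was −2.04 log2 units in K562 and 1.43 in THP1, where all genes had 0.07 and −0.16. None of the 7 listed phosphatases was enriched. PTPRC, which encodes CD45 and removes the tail phosphate in leukocytes, had 411 in SUDHL4, 120.0 in THP1, 42.7 in HL60 and 37.3 in K562.

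Of all tested genes, 24.8% were highest in HL60, 30.2% in K562, 24.3% in SUDHL4 and 20.7% in THP1. Of 20 antigen receptor partners that reached 5, 11 were highest in SUDHL4, 5 in THP1, 2 in HL60 and 2 in K562, and 4 were enriched in SUDHL4: CD79B (504 against 2.92 in THP1), CD79A (1003 against 12.1 in HL60), BLNK (55.8 against 0.779 in THP1) and CD247 (9.35 against 0.955 in HL60). CD79A and CD79B are the signalling chains of the B cell receptor, BLNK is its adaptor, and CD247 encodes the zeta chain of the T cell receptor complex. THP1 had 2 enriched, the signalling adaptors FCER1G (655 against 19.6 in HL60) and TYROBP (157 against 11.5), and K562 had the adaptor GRAP2 (98.1 against 0.199 in THP1). SYK, the kinase recruited next, was highest in SUDHL4 (459) and THP1 (430.0) and lowest in K562 (30.0).

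Of 11 receptors that recruit SHP-1 and reached 5, 4 were highest in SUDHL4, 4 in THP1 and 3 in HL60, beside the shares of all genes given above. SUDHL4 had 4 enriched, namely CD22 (782), CD72 (57.0), SIGLEC10 (59.4) and LILRB1 (23.9). THP1 had 2 enriched, LILRB4 (187) and SIGLEC7 (9.21). By the rule for pairs 6 of the 11 were shared, against 6.42% of genes. HL60 and THP1 shared SIRPA (102 and 77.3), LAIR1 (151 and 207), CD33 (89.7 and 70.2) and CLEC12A (9.6 and 8.42). CD22 was shared by K562 and SUDHL4, and FCGR2B by SUDHL4 and THP1. None was highest in K562. The list median of the difference from the other lines was 2.43 log2 units in THP1, −1.05 in HL60, −1.14 in SUDHL4 and −2.27 in K562. PTPN6 itself was at 143 in THP1, 343 in HL60, 10.2 in SUDHL4 and 1.28 in K562.

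Adhesion substrates and partners differed in direction. Of 14 that reached 5, 6 were highest in K562, 5 in SUDHL4, 2 in THP1 and 1 in HL60, and 3 were enriched in K562: the adaptor CRKL, a substrate of BCR-ABL (565 against 129 in SUDHL4), the actin regulator CTTN (34.1 against 0.688 in THP1) and the Src substrate CDCP1 (45.0 against 1.42 in THP1). SUDHL4 had the adaptor STAP1 enriched (235 against 9.80 in HL60) and THP1 the membrane protein CAV1 (24.8 against 0.325 in K562). The list median of the difference from the other lines was 0.70 log2 units in SUDHL4, 0.31 in K562, 0.23 in THP1 and −1.19 in HL60. In K562 the antigen receptor partners had a median of −2.87.

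**Figure D4:**
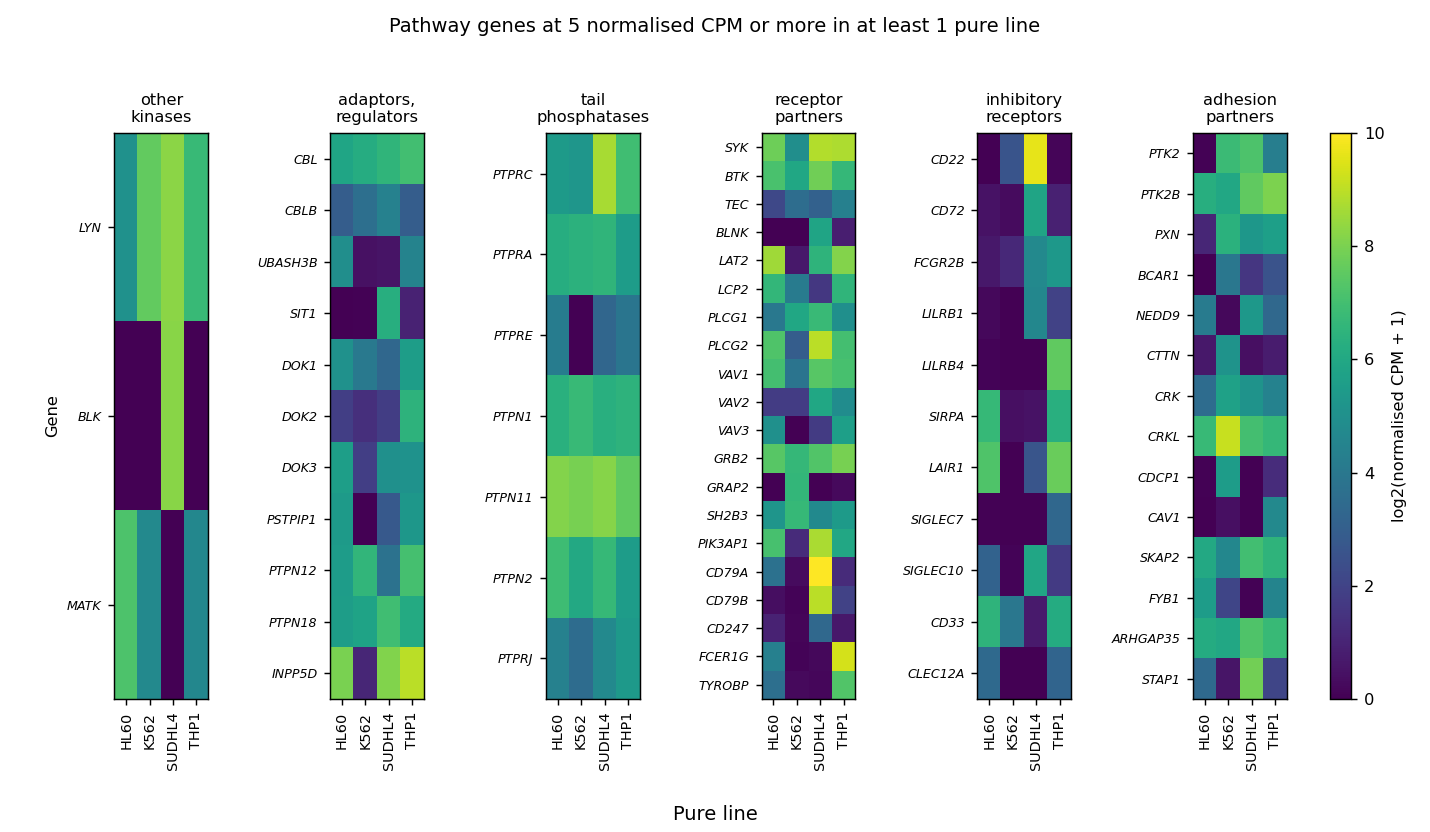
Heat map of log2(normalised CPM + 1) in the 4 pure lines for the listed pathway genes that reached 5 normalised CPM in at least 1 of them, in 6 groups, with 1 library per line. CD79A (1003) and CD22 (782) are brightest in SUDHL4, FCER1G (655) in THP1 and CRKL (565) in K562.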

How the data were processed

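Bulk RNA of 10 libraries was measured by sequencing. Build hg19 and the tools featureCounts, HISAT2 and Cell Ranger ARC 2.0.0 are listed, with no role, in the submitters' processing notes; settings and annotation are not given in the sources used here, nor is whether strand was used in counting. Libraries were made with a stranded total RNA kit or a stranded mRNA kit, per the labels' protocols, which do not say which library had which. The authors deposited signal values in a table named for CPM. Columns sum to between 909942 and 1108151, so library sizes had been rescaled. Nonzero values are whole reads, each raised by 0.5, multiplied by a step of the column (100% of values within a tolerance of 0.01). Reads were recovered from them for the counting intervals, and no count test was run.

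The members and lists were chosen with earlier results of these data known. The members, enriched list genes (at most 4 per list and line, by margin) and the 3 nearest profiles per member are named. List genes that are named but not enriched in a line were chosen after their values were seen. These are LYN, PTPRC, SYK, ZAP70, CD3E, NKG7, CD4, SIRPA, LAIR1, CD33, CLEC12A and FCGR2B. Poisson intervals apply to reads, and ratio intervals are exact conditional (Clopper-Pearson). Ratios given with such an interval use reads without the added 0.5. At few reads they differ from ratios of the printed levels, as for SRC in K562 over HL60 (37.4, against 35.7 from the levels). Lengths and positions of transcripts come from GENCODE release 29 (GRCh38), which differs from the authors' build, so no coordinates were joined. Antisense or intronic genes overlap LCK, YES1, CSK, PAG1 and PTPN22 in that annotation. Some listed genes are not reported here and were left out of the lists, marker counts and kinase totals. The calling and the mixture fit were tested on simulated data with counting noise only. The simulated mixtures were weighted sums of the pure lines, so differences of kit, normalisation and library were not covered. Python 3.11.15, SciPy 1.17.1 and pandas 2.3.3 were used. Alternatives covered pseudocount, margin, minimum level, scaling, signature and length.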

Additional observations from a re-analysis of the deposited data

How the results depend on the processing

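No paired analysis was possible because each group holds 1 library and no test was made; leaving out a replicate was not possible for the same reason. LCK and YES1 stayed enriched under all 8 alternatives. PAG1 was not enriched with a margin of 3 log2 units or with housekeeping scaling, which left 1 member enriched in SUDHL4 under either. With a margin of 1, 1 member (PTPN6) was enriched in HL60, and PTPN22 was added in SUDHL4; with a margin of 3, 1 member (PTPN6) was shared by a pair. Pathway list genes enriched in HL60 numbered 2 with a margin of 1, and 0 with a margin of 3 or with housekeeping scaling, against 1 (MATK) as reported. At a threshold of 0.5 log2 units, 2 member values were off their prediction (PAG1 in mixture 2 and YES1 in mixture 5); under the other 8 alternatives of the fit there were 0. The share of the summed level of the 7 kinases held by the 5 members moved with the length used. With the median transcript length it was 50.3% in HL60, 41.8% in K562, 44.8% in SUDHL4 and 45.2% in THP1, and with coding length 50.9%, 57.3%, 30.2% and 39.9%, against 62.8%, 64.6%, 42.5% and 51.8% with the longest transcript. Housekeeping scaling multiplied HL60 by 0.739 and THP1 by 1.17. No replicates exist, so biological and library-to-library spread is unknown.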
